A study of Mus musculus with 8 samples.

Results

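The endothelial genes of the liver sinusoid were followed in the livers of mice given MOCA. The set holds 33 genes, chosen by symbol: sinusoidal markers, general endothelial markers, and the Bmp and Wnt signals that liver endothelium sends out. The choice was made with earlier results of these data known, so shares within the set are descriptions and not a test of it. All 33 were among the 15210 genes listed, and all 33 passed the filter on low values (4 or more of the 8 libraries at 1 or above), as did 12008 genes in all.

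RNA was read from the livers of 8 female F1-TKm30 mice. The treated group (n = 4) received MOCA, 4,4'-methylenebis(2-chlorobenzenamine), a hardener of polyurethane resins, at 0.05% over 4 weeks, and the control group (n = 4) received 0%. Mice of both groups carry a cDNA of the mutant clone 30 of herpes simplex virus thymidine kinase, driven by the mouse transthyretin enhancer and promoter, which is active in hepatocytes rather than in endothelium. The series description gives the NOG background, which lacks T, B and NK cells, and the treatment label names C57BL mice instead; the column names of the table begin with Wild for all 8 mice. Ages were 17 or 21 weeks, but which mouse had which age is not stated. There was 1 library per mouse, of 15024945 to 15970453 reads in the MOCA group and 16077424 to 17101844 reads in the control group, so every MOCA library was the shallower. Values are taken as the authors' TMM-scaled CPM, read counts scaled to library size and then between libraries. In these values 1 read was worth 0.0581 to 0.0648. The 8 libraries are whole-liver RNA, so fewer endothelial cells and less RNA per endothelial cell cannot be told apart.

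The sinusoids of the liver are lined by a fenestrated endothelium that has no continuous basement membrane. Its cells clear waste macromolecules and immune complexes from blood through scavenger and Fc receptors, and they depend on VEGF signals and on the transcription factors Gata4 and Maf to keep that character. They also instruct hepatocytes: Bmp2 and Bmp6 act on hepatocytes to raise the iron hormone hepcidin, and Wnt2, Wnt9b and Rspo3 keep up the programme of hepatocytes around the central vein.

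None of the 33 endothelial genes passed the test across all genes in either direction (limma, Benjamini-Hochberg adjusted p under 0.05). Over all 12008 genes tested, 0.666% were called, 0.4% higher and 0.266% lower in MOCA livers. Of these genes, 28 of the 33 genes (84.8%) had a negative log2 fold change of MOCA over control, against 48.9% of all genes tested. The median log2 fold change was -0.12 over the 33 genes, from -0.43 for Nrp1 to 0.17 for Wnt9b, against 0.01 over all genes tested. Every MOCA value lay below every control value for 8 of the 33 genes (24.2%), against 4.96% of all genes tested, and for 0 of the 33 did every MOCA value lie above, against 5.5%. These 8 genes were Bmp2, Nrp1, Ptprb, Stab2, Sox18, Wnt2, Egfl7 and Stab1. At an unadjusted p under 0.05, 10 were lower (8.05% of all genes tested) and 0 were higher (9.42%). The edgeR test on recovered reads called 0 of the 33, against 0.675% of all genes tested (0.4% higher, 0.275% lower). DESeq2 on the same reads called 3 lower, Bmp2, Nrp1 and Ptprb, and 0 higher, against 3.45% of all genes tested (1.81% higher, 1.64% lower).

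In each mouse the 33 genes lay on median close to their control means. The log2 distance of each gene from its control mean had a median over the 33 genes of -0.15, -0.08, -0.13 and -0.16 in MOCA replicates 1 to 4. The median was 0.02, -0.05, 0.02 and 0.0023 in control replicates 1 to 4, so the groups did not overlap, although control replicate 2 and MOCA replicate 2 lay close. The number of genes below their control mean was 29, 20, 22 and 28 in the MOCA livers, against 13, 23, 11 and 16 in the control livers; control replicate 2 therefore had more genes below the mean than MOCA replicates 2 and 3. Added up, the values of the 33 genes came to 1409 to 1497 in MOCA livers and 1564 to 1712 in control livers, a mean in MOCA livers of 88.7% of the control mean (SD 2.21 percentage points in MOCA and 4.21 in control livers, n = 4 each). The sum weighs genes by their level. The widest gaps between means were those of Nrp1 (118 in MOCA, 159 in control livers), Ptprb (203 and 241) and Stab2 (129 and 154). On the same scale, hepatocyte and stellate cell marker sums averaged 90.1% each in MOCA livers, Kupffer cell markers 110% and erythroid markers 158%. The SD in MOCA livers was 5.55 percentage points for hepatocyte, 7.55 for stellate, 14.4 for Kupffer cell and 7.37 for erythroid markers. The stellate and the Kupffer cell sums overlapped between the groups.

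**Figure D1:**
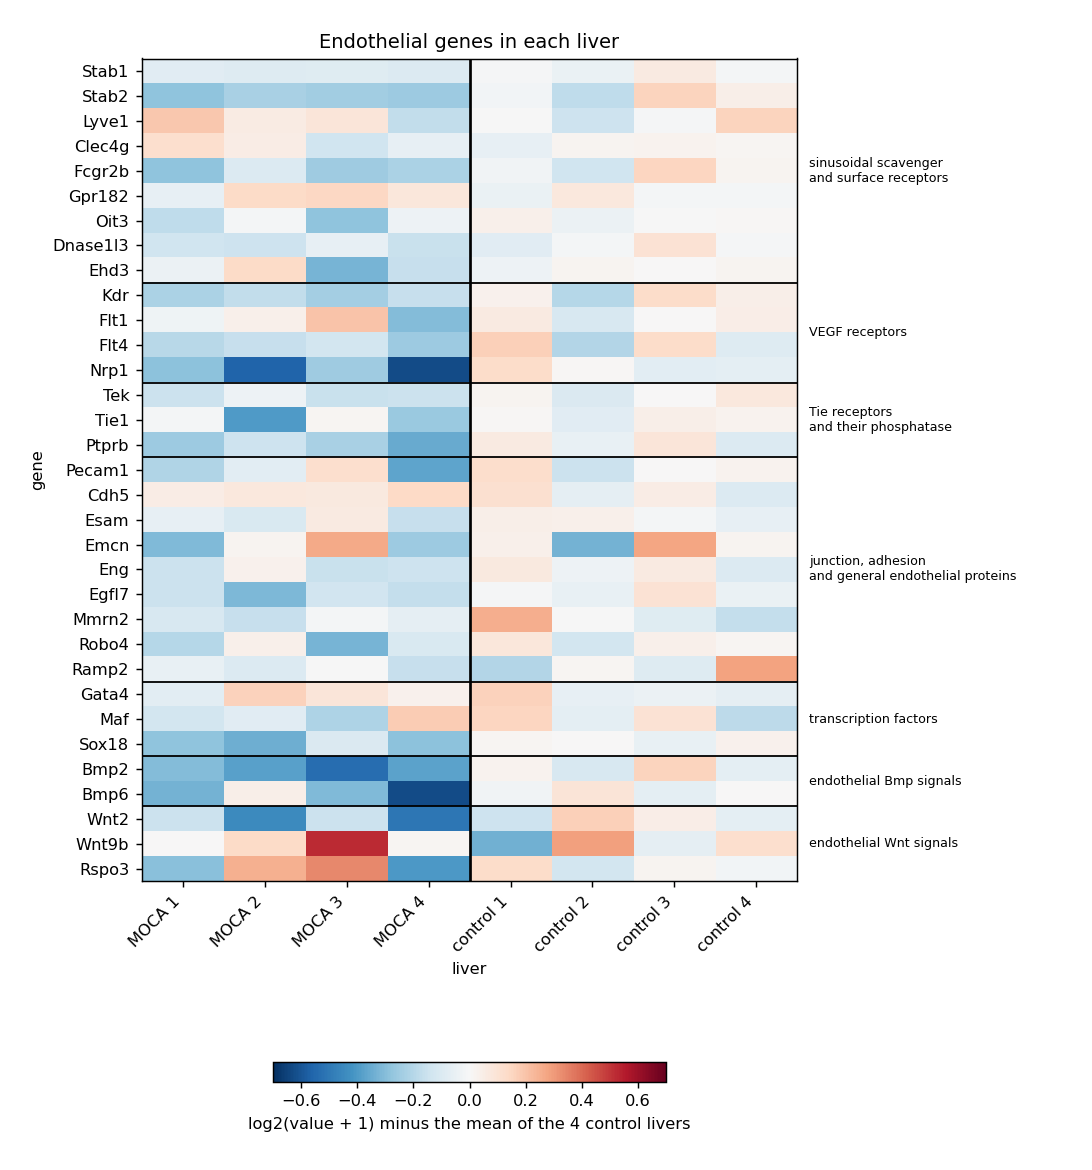
Each cell shows 1 gene (rows, in blocks by role) in 1 liver (columns, 4 MOCA livers on the left, 4 control livers on the right), as log2(value + 1) minus the mean of the 4 control livers, blue for lower and red for higher. Nrp1, Bmp2, Stab2 and Ptprb are blue in all 4 MOCA livers, while Cdh5 is pale red in all 4.

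Among the scavenger and surface receptors of the sinusoid, Stab2 differed most. Stab2 (chromosome 10, 86841194 to 87008038, mm10) encodes stabilin-2, the receptor that clears hyaluronan. Its values were 126.0, 131, 129 and 128 in MOCA livers, against 151, 136, 171 and 158 in control livers. The MOCA values lay close together and all below the control values, with a log2 fold change of -0.25 (SE 0.08, limma adjusted p = 0.138). Stab1, which encodes the related stabilin-1 (chromosome 14, 31139017 to 31168651), had 115, 114, 115 and 114 in MOCA livers, against 121, 118, 127 and 121 in control livers. Here too the groups did not overlap, with a smaller log2 fold change of -0.09 (SE 0.06, limma adjusted p = 0.483). Fcgr2b, the inhibitory Fc receptor through which sinusoidal cells remove immune complexes, had 45.2, 51.6, 46.2 and 47.2 in MOCA livers, against 54.0, 49.9, 61.2 and 55.9 in control livers. Its groups overlapped through control replicate 2 and MOCA replicate 2 (log2 fold change -0.21, SE 0.08, limma adjusted p = 0.209).

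The groups of the other 6 sinusoidal markers overlapped. Clec4g, a C-type lectin known as LSECtin, had 54.0, 51.6, 45.1 and 47.7 in MOCA livers, against 47.6, 50.4, 50.5 and 50.2 in control livers. The 2 groups were interleaved, with a log2 fold change of -0.01 (95% interval -0.17 to 0.16, limma adjusted p = 0.979). The hyaluronan receptor gene Lyve1 averaged 11.3 ± 1.26 in MOCA and 10.97 ± 1.03 in control livers, and the receptor gene Gpr182 averaged 29.3 ± 1.92 in MOCA and 27.7 ± 1.05 in control livers (SD, n = 4 each). Both had a positive log2 fold change, of 0.04 for Lyve1 and 0.07 for Gpr182. Dnase1l3, a secreted nuclease that digests DNA in microparticles, averaged 97.3 ± 3.12 in MOCA and 106 ± 5.69 in control livers, and Oit3 averaged 35.2 ± 3.15 in MOCA and 38.4 ± 0.841 in control livers. Ehd3, an endocytic recycling protein, ranged from 68.0 to 94.3 in MOCA livers and from 83.5 to 86.7 in control livers, the wider spread being in the MOCA group. Of these 9 receptors and surface genes 7 had a negative and 2 a positive log2 fold change, with a median of -0.10.

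Start-site sequences are shown for Nrp1, Stab2 and the signal gene Wnt2, whose groups were separate, and for Clec4g, to set the values beside the letters of each promoter. RefSeq windows of the GRCm38.p6 assembly, 250 bases before to 50 after a start site, were at hand for 18 of the 33 genes. A 6-letter motif of the ETS type, AGGAAG or its reverse complement CTTCCT, is printed in capitals; ETS factors such as Erg and Fli1 are regulators of endothelial genes. The Nrp1 and Stab2 windows hold 1 match each and the Clec4g window holds 3, of which 2 overlap, while the Wnt2 window holds 0. Coordinates are chr8:128358823-128359122 (plus strand) for Nrp1, chr10:87007893-87008192 (minus strand) for Stab2, chr8:3720602-3720901 (minus strand) for Clec4g and chr6:18030396-18030695 (minus strand) for Wnt2.
Nrp1: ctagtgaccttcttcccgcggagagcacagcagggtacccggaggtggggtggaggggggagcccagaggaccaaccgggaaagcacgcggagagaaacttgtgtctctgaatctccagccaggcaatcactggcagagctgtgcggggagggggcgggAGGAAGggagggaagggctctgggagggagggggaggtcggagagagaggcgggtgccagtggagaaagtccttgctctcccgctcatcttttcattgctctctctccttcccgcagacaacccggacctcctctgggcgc
Stab2: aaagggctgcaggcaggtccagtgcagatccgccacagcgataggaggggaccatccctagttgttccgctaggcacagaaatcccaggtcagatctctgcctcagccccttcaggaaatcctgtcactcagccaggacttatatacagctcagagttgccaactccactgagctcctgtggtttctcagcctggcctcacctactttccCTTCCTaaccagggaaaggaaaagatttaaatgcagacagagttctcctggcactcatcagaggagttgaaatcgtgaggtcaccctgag
Clec4g: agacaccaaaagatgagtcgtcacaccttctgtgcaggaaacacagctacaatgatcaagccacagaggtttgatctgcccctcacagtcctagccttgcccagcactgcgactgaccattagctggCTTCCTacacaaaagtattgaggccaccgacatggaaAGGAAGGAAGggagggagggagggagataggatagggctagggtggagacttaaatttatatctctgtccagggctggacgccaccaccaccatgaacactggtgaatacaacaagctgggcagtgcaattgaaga
Wnt2: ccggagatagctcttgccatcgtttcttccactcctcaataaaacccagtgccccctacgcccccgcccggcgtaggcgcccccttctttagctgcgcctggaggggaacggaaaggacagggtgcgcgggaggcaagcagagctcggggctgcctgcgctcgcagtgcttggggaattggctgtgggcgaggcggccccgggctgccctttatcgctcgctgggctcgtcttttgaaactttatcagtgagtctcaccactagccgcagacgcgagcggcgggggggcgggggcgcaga
Egfl7 has more than 1 window in the table, and each gene was counted by its first. The ETS-type motif was present for 11 of the 18 genes (61.1%), against 35.1% of 27025 genes. A GATA-type motif, AGATAA or TTATCT, was present for 1 of the 18 (5.6%, against 11.4% of all), and a SOX-type motif, AACAAT or ATTGTT, for 2 (11.1%, against 10.9% of all). A match describes the letters of the window and shows no binding. Windows with a match belonged to genes with separate groups, such as Stab2 and Nrp1, and to Clec4g, whose groups were interleaved. The groups of Wnt2 were separate too, and its window had no match.

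The receptors for VEGF had the largest negative value of the set. Nrp1 encodes neuropilin-1, a co-receptor for VEGF and semaphorins that other liver cells also make (chromosome 8, 128358591 to 128505476). It had 129.6, 107, 133 and 102 in MOCA livers, against 173, 159, 151 and 151 in control livers. Every MOCA value was below every control value, and MOCA replicates 2 and 4 were the lowest. The log2 fold change was -0.43 (SE 0.10, 95% interval -0.64 to -0.22), with an adjusted p of 0.0652 by limma, 0.0675 by edgeR and 0.005 by DESeq2.

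Kdr encodes VEGF receptor 2, the main signalling receptor for VEGF-A. Its values were 80.2, 83.0, 79.4 and 83.8 in MOCA livers, against 95.9, 81.5, 102.5 and 96.6 in control livers. The overlap came from control replicate 2, and the log2 fold change was -0.20 (SE 0.08, limma adjusted p = 0.224). Flt4, VEGF receptor 3, averaged 62.8 ± 2.32 in MOCA and 71.9 ± 8.87 in control livers, where control replicates 2 and 4 were near the MOCA values (log2 fold change -0.18, limma adjusted p = 0.309). Flt1, VEGF receptor 1, averaged 22.7 ± 3.33 in MOCA and 22.9 ± 1.28 in control livers, with a log2 fold change of -0.02 that turned positive with columns scaled to equal sums and without MOCA replicate 4.

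The Tie receptor genes Tek, whose product binds angiopoietins, and Tie1 had lower means in MOCA livers, with no call by limma. Ptprb, the phosphatase VE-PTP that acts on Tek and on VE-cadherin (chromosome 10, 116275502 to 116389538), had 202, 218, 205 and 188 in MOCA livers, against 251, 232, 256 and 225 in control livers. The groups did not overlap, with a log2 fold change of -0.24 (SE 0.07). Its adjusted p was 0.132 by limma and 0.0493 by DESeq2. Tek averaged 19.7 ± 0.85 in MOCA and 21.5 ± 1.13 in control livers, a log2 fold change of -0.12 (limma adjusted p = 0.42). Tie1 averaged 18.2 ± 2.56 in MOCA and 20.3 ± 0.774 in control livers, with MOCA replicates 2 and 4 at 15.2 and 16.8 and the other two MOCA livers at the control level (log2 fold change -0.16, limma adjusted p = 0.426).

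The junction, adhesion and general endothelial genes had log2 fold changes between -0.19 and 0.08, with no call by limma. Cdh5, VE-cadherin of the adherens junction, had 47.0, 47.7, 47.5 and 49.97 in MOCA livers, against 48.98, 43.3, 46.96 and 42.3 in control livers. Its log2 fold change was positive at 0.08 (95% interval -0.07 to 0.24, limma adjusted p = 0.583), and the groups overlapped. Pecam1, the adhesion molecule CD31, averaged 20.7 ± 3.14 in MOCA and 22.7 ± 1.84 in control livers (log2 fold change -0.13, limma adjusted p = 0.561). Egfl7, a secreted protein of the endothelial matrix, had 13.1, 11.6, 13.3 and 12.95 in MOCA livers, against 14.6, 14.1, 15.8 and 14.2 in control livers. The groups of Egfl7 were separate, with a log2 fold change of -0.19 (limma adjusted p = 0.265).

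Of the remaining genes of this kind, all 6 had a negative log2 fold change and overlapping groups. Eng, the co-receptor endoglin, averaged 87.8 ± 5.76 in MOCA and 94.4 ± 5.21 in control livers (log2 fold change -0.10). Robo4, a guidance receptor of vessels, averaged 15.3 ± 1.74 in MOCA and 17.0 ± 1.10 in control livers (-0.15). The log2 fold changes were -0.09 for Mmrn2 (multimerin 2), -0.06 for the adhesion gene Esam, -0.08 for Ramp2, which pairs with the adrenomedullin receptor, and -0.07 for the sialomucin gene Emcn. Emcn was near the filter, at 2.41 ± 0.644 in MOCA and 2.57 ± 0.600 in control livers, so its interval was wide (-0.43 to 0.29).

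Among the transcription factors Sox18 stood lowest against its controls. Sox18, which acts in vessel and lymphatic development, had 5.22, 4.96, 6.03 and 5.19 in MOCA livers, against 6.62, 6.57, 6.29 and 6.72 in control livers. The groups were separate, with a log2 fold change of -0.25 (SE 0.09, limma adjusted p = 0.203). Gata4, the factor that maintains sinusoidal identity and is also present in other liver cells, averaged 18.99 ± 1.37 in MOCA and 18.3 ± 1.49 in control livers. Maf averaged 45.4 ± 5.63 in MOCA and 47.4 ± 5.10 in control livers, so these factors gave log2 fold changes of 0.05 for Gata4 and -0.06 for Maf, with overlapping groups.

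**Figure D2:**
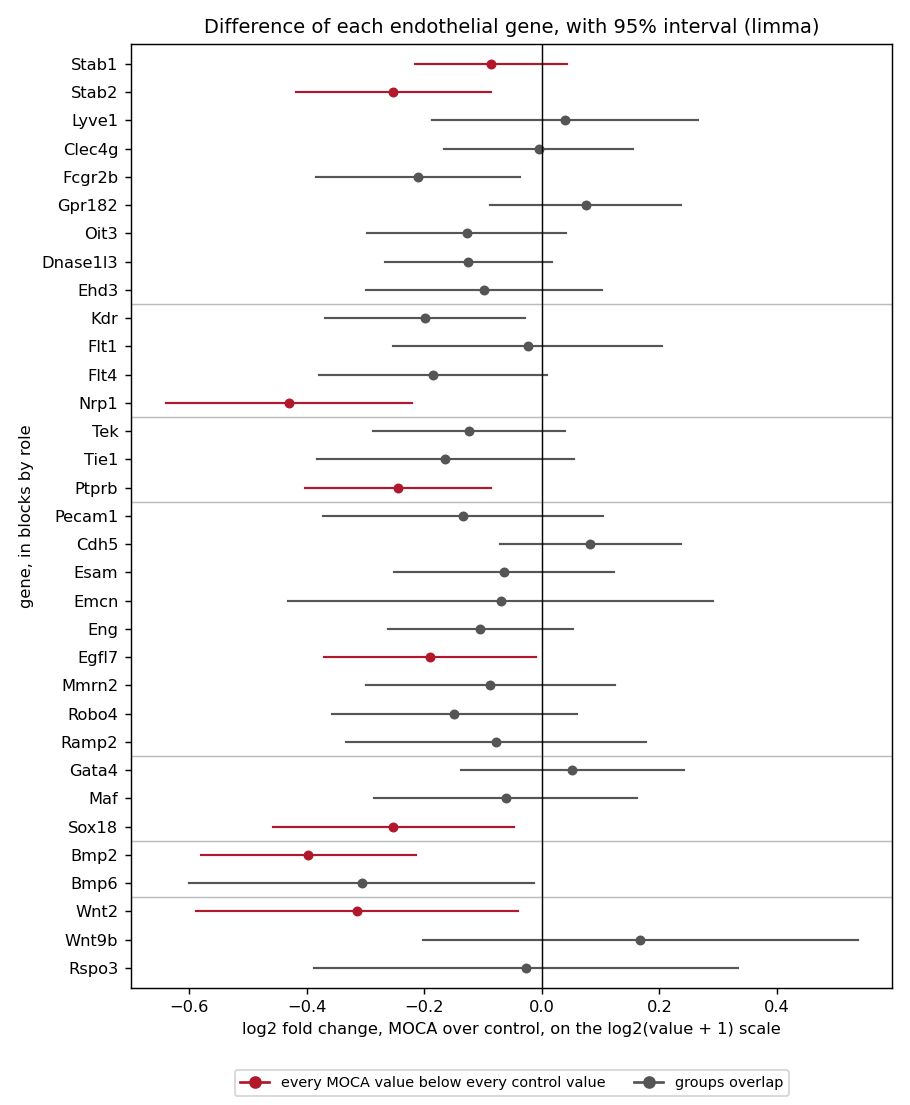
Points give the log2 fold change of MOCA over control for each of the 33 genes (rows, in blocks by role), with the 95% interval of the limma fit as a line, red where every MOCA value was below every control value. The intervals of Nrp1 (-0.64 to -0.22) and Bmp2 (-0.58 to -0.21) lie farthest from 0, and the 5 positive values are those of Lyve1, Gpr182, Cdh5, Gata4 and Wnt9b.

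The smallest p of the set was that of Bmp2, an endothelial Bmp signal. Bmp2 (chromosome 2, 133552159 to 133562896) had 28.5, 26.95, 24.1 and 27.1 in MOCA livers, against 35.96, 32.7, 39.4 and 33.7 in control livers. All MOCA values lay below all control values, with means of 26.7 ± 1.84 in MOCA and 35.4 ± 2.996 in control livers (SD, n = 4 each). The log2 fold change was -0.40 (SE 0.08, 95% interval -0.58 to -0.21), with an adjusted p of 0.0617 by limma, 0.0597 by edgeR and 0.00444 by DESeq2. The adjusted p was 0.0457 with robust eBayes, and over all alternatives it ranged from 0.00444 to 0.173. Bmp6 (chromosome 13, 38345716 to 38500314) had 4.52, 6.12, 4.6 and 3.48 in MOCA livers, against 5.81, 6.38, 5.62 and 5.94 in control livers. MOCA replicate 2 lay among the controls and the other MOCA livers below them, with a log2 fold change of -0.31 (SE 0.13, limma adjusted p = 0.267).

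Genes that Bmp signalling switches on were read beside these signals. Of 10 such genes tested, 1 was called lower, 0 were called higher and 9 did not pass (limma). Each of edgeR and DESeq2 called 1. Over all genes tested, limma called 0.666%, edgeR 0.675% and DESeq2 3.45%. At an unadjusted p under 0.05 (limma), 5 of the 10 were lower and 0 higher, against 8.05% and 9.42% of all genes tested. Every MOCA value was below every control value for 3 of the 10, against 4.96% of all genes tested. The called gene was Smad9, a transducer and target of Bmp signals, at 19.9, 20.1, 21.4 and 15.9 in MOCA livers, against 45.03, 33.3, 45.2 and 33.7 in control livers. The groups of Smad9 were far apart, with a log2 fold change of -0.98 (SE 0.13, limma adjusted p = 0.00778). Hamp, which encodes hepcidin and is named here after its values were seen, averaged 429 ± 58.3 in MOCA and 549.9 ± 102 in control livers, with overlapping groups (log2 fold change -0.35, limma adjusted p = 0.222). Bambi, Atoh8, Hamp2, Id2 and Id3 were likewise named after their values were seen. Bambi averaged 2.30 ± 0.290 in MOCA and 3.72 ± 0.665 in control livers (log2 fold change -0.51, limma adjusted p = 0.0955). Atoh8 averaged 36.1 ± 5.85 in MOCA and 47.6 ± 5.97 in control livers (log2 fold change -0.395, limma adjusted p = 0.145). The groups of Bambi and of Atoh8 were separate. Hamp2 averaged 109 ± 42.6 in MOCA and 112 ± 39.7 in control livers (log2 fold change -0.05). Over the 10 genes 8 had a negative log2 fold change, against 48.9% of all genes tested, and the median was -0.27, against 0.01. The 2 positive values were those of Id2 (0.07) and Id3 (0.005). Whether the targets moved with Bmp2 was not tested.

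**Figure D3:**
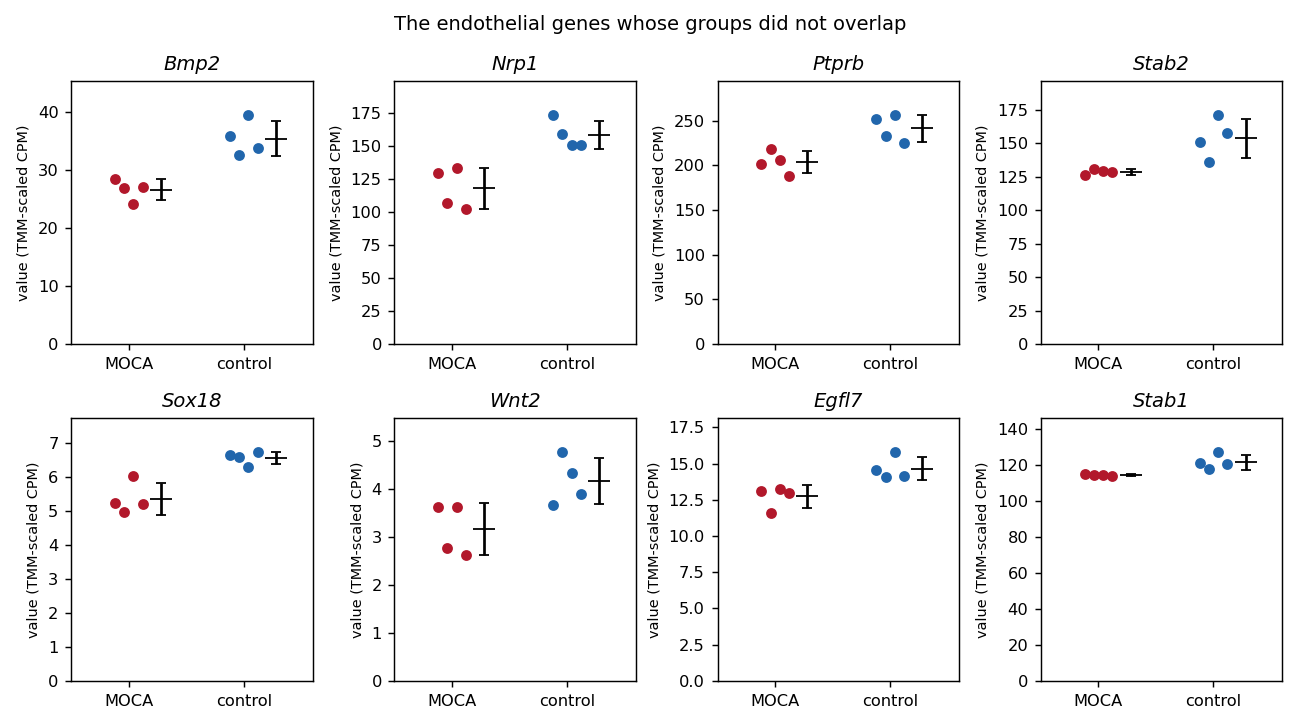
Values in TMM-scaled CPM (vertical axes from 0) of the 8 endothelial genes whose groups did not overlap, 1 point per liver, with the 4 MOCA livers left of the 4 control livers and the mean and SD of each group in black. The means of Bmp2 are 26.7 in MOCA and 35.4 in control livers, while those of Stab1 differ by less, at 115 in MOCA and 122 in control livers.

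The Wnt signals of the endothelium did not go one way. Wnt2 (chromosome 6, 17985474 to 18032772) had 3.63, 2.77, 3.63 and 2.63 in MOCA livers, against 3.66, 4.77, 4.32 and 3.90 in control livers. The groups were separate by a narrow gap between MOCA replicates 1 and 3 and control replicate 1, with a log2 fold change of -0.31 (SE 0.12, limma adjusted p = 0.231). Wnt9b was the weakest gene of the set, at 1.145, 1.35, 2.07 and 1.16 in MOCA livers, against 0.697, 1.61, 1.05 and 1.32 in control livers. Its groups overlapped and its interval reached from -0.20 to 0.54. Rspo3, which strengthens Wnt signals, had 4.84, 7.48, 8.03 and 4.40 in MOCA livers, against 6.80, 5.54, 6.23 and 6.06 in control livers. The MOCA livers of Rspo3 lay on both sides of the control range, and its log2 fold change of -0.03 had no stable sign across the alternatives.

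Hepatocyte genes that respond to these Wnt signals were read as well. Of 15 tested, limma and edgeR called 0, against 0.666% and 0.675% of all genes tested, and DESeq2 called 2, against 3.45%. At an unadjusted p under 0.05 (limma), 4 were lower and 0 higher, against 8.05% and 9.42% of all genes tested. The log2 fold change was negative for 13 of the 15, against 48.9% of all genes tested, with a median of -0.18 against 0.01. The 3 genes with the smallest p were the Wnt feedback genes Znrf3 and Nkd1 and the Rspo receptor gene Lgr5. Znrf3 averaged 28.2 ± 4.42 in MOCA and 37.7 ± 2.96 in control livers (limma adjusted p = 0.101), Lgr5 averaged 5.52 ± 0.428 in MOCA and 8.63 ± 2.19 in control livers (0.12), and Nkd1 averaged 4.72 ± 0.469 in MOCA and 5.70 ± 0.168 in control livers (0.254). In each of these 3 genes, and in no other of the 15, every MOCA value was below every control value, against 4.96% of all genes tested. Glul, glutamine synthetase of the innermost hepatocytes and named after its values were seen, averaged 785 ± 87.9 in MOCA and 798 ± 58.1 in control livers.

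Ligands of the receptors described above were mostly faint in whole liver. Of 14 symbols (Vegfd and Figf name 1 gene) 12 were listed and 6 passed the filter. None was called by limma, edgeR or DESeq2, against 0.666%, 0.675% and 3.45% of all genes tested. At an unadjusted p under 0.05 (limma), 2 were lower, against 8.05% of all genes tested. All 6 had a negative log2 fold change, against 48.9% of all genes tested, with a median of -0.20 against 0.01. Vegfa, the main VEGF of hepatocytes, had 67.96, 65.8, 65.9 and 64.1 in MOCA livers, against 93.3, 68.8, 92.1 and 73.03 in control livers. The Vegfa groups did not overlap, and control replicates 1 and 3 stood well above the other six livers (log2 fold change -0.29, limma adjusted p = 0.175). Bmp10, a circulating ligand of the endoglin receptor complex, averaged 2.86 ± 0.672 in MOCA and 3.83 ± 0.536 in control livers (limma adjusted p = 0.26), and Vegfb averaged 10.1 ± 1.58 in MOCA and 12.2 ± 2.33 in control livers (0.394).

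Set per length of transcript, the genes of the set spread over a wide range of levels. Divided by the spliced length of the longest GENCODE transcript, the highest levels were those of Nrp1, at 32.8 per kb in MOCA and 44.1 per kb in control livers, and of Clec4g, at 34.4 per kb in MOCA and 34.5 per kb in control livers. Eng, Ehd3, Dnase1l3, Ptprb and Stab2 followed, from 18.7 to 27.6 per kb in control livers. The signals were low: Bmp2 had 7.50 per kb in MOCA and 9.97 per kb in control livers, Rspo3 had 2.01 in MOCA and 2.00 in control livers, Wnt2 had 1.40 in MOCA and 1.85 in control livers, and Wnt9b had 0.317 in MOCA and 0.259 in control livers. In control livers Nrp1 ranked first and Clec4g second, whereas in MOCA livers their means lay within the spread between mice.

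**Figure D4:**
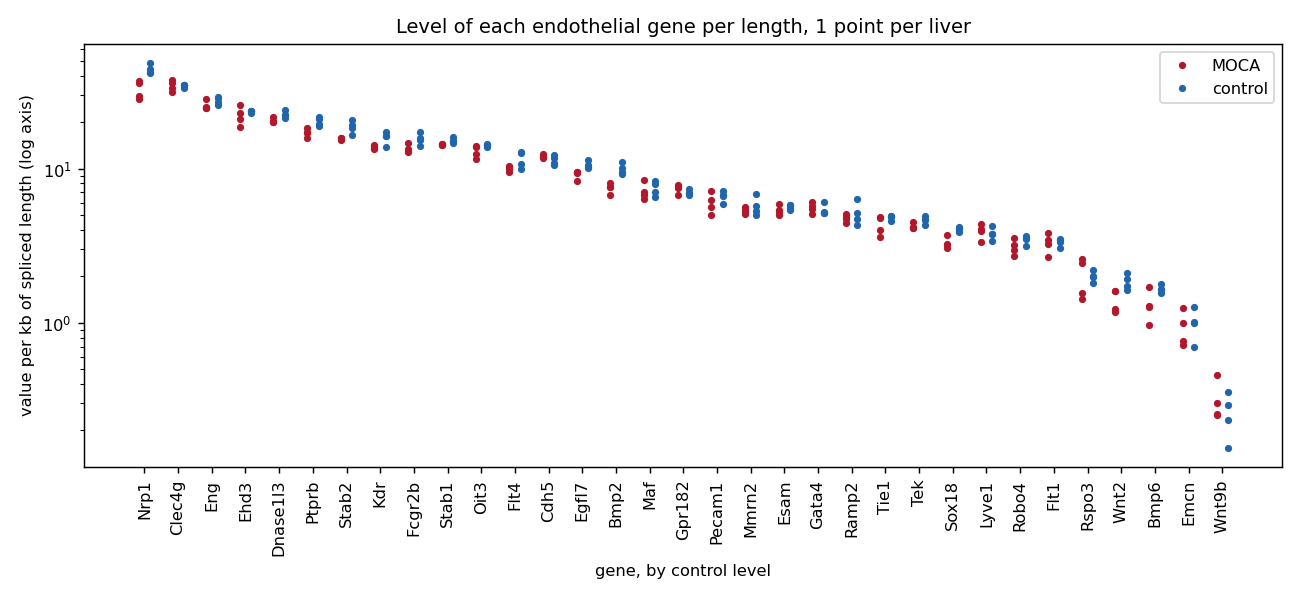
Level of each of the 33 genes (horizontal axis, in order of the control mean) as TMM-scaled CPM per kb of spliced length on a log axis, 1 point per liver, MOCA to the left of control for each gene. Levels run from 44.1 per kb for Nrp1 to 0.259 per kb for Wnt9b in control livers.

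Spread between mice was narrow for most of the set. The median coefficient of variation was 7.41% in MOCA and 6.69% in control livers over the 33 genes, against 10.5% in MOCA and 10.9% in control livers over all genes tested. Stab1 varied least in MOCA livers (0.519%) and Wnt9b most (30.5%). The median level was 22.8 over the 33 genes and 17.3 over all genes tested. Spread was not compared at equal level, and counting error was not separated from differences between mice. Spearman's rho between genomic span and log2 fold change was -0.13 over the 33 genes and -0.11 over 11972 genes with a position. These are descriptions across genes, which are not independent replicates, and a link between span and change was not tested.

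Endothelial genes outside the set held no call. Of 30 further endothelial genes tested, none was called by limma, edgeR or DESeq2, against 0.666%, 0.675% and 3.45% of all genes tested. At an unadjusted p under 0.05 (limma), 3 were lower and 0 higher, against 8.05% and 9.42% of all genes tested. The log2 fold change was negative for 22, against 48.9% of all genes tested, with a median of -0.11 against 0.01. The 3 with the smallest p were the water channel Aqp1, the scaffold gene Shank3 and the secreted protein gene Igfbp7. Aqp1 had 106, 113, 111 and 99.9 in MOCA livers, against 117, 117, 139.5 and 133 in control livers, which do not overlap (log2 fold change -0.23, limma adjusted p = 0.177). Shank3 and Igfbp7 had log2 fold changes of -0.22 and -0.18, with limma adjusted p of 0.232 and 0.243.

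Genes of larger vessels and continuous capillaries held no call by limma or edgeR among 20 tested, against 0.666% and 0.675% of all genes tested. DESeq2 called 2, against 3.45%. At an unadjusted p under 0.05 (limma), 2 were lower and 1 higher, against 8.05% and 9.42% of all genes tested. The log2 fold change was negative for 13, against 48.9% of all genes tested, with a median of -0.10 against 0.01. Ly6c1, a surface protein of capillary endothelium and monocytes, averaged 9.90 ± 3.12 in MOCA and 4.86 ± 1.37 in control livers, and its MOCA values all exceeded its control values (log2 fold change 0.88, limma adjusted p = 0.0928). Efnb2, the arterial ephrin-B2, averaged 3.99 ± 0.499 in MOCA and 6.01 ± 0.970 in control livers, and its MOCA values all lay under its control values (-0.49, limma adjusted p = 0.0955). Sparcl1 had a log2 fold change of -0.24 (limma adjusted p = 0.25). Plvap and Vwf, genes of capillarised and large-vessel endothelium named after their values were seen, averaged 59.98 ± 2.87 and 15.7 ± 3.95 in MOCA livers, against 59.2 ± 2.79 and 14.9 ± 1.49 in control livers.

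Summed markers of some other liver cells also differed between the groups, and their part in the endothelial values was not tested. The 10 hepatocyte markers, all listed, summed to 101500 to 116000 in MOCA livers and 116300 to 137800 in control livers, and all 10 had a negative log2 fold change (median -0.09). The 13 stellate cell markers summed to 647 to 788 in MOCA and 763 to 840.0 in control livers, and 8 of the 13 had a negative log2 fold change (median -0.06). The 12 Kupffer cell markers summed to 381 to 516 in MOCA and 366 to 454 in control livers, and 11 of the 12 had a positive log2 fold change (median 0.17). Erythroid markers (6 of 6 listed) summed to 473 to 525 in MOCA livers and 252 to 443 in control livers, with control replicate 2 at 443 and the other three control livers at 252 to 289.5. All 4 erythroid markers tested had a positive log2 fold change (median 0.67). Sums were 36.5 to 55.5 in MOCA and 41.2 to 49.8 in control livers for 6 of 7 bile duct markers, and 5.05 to 6.78 in MOCA and 5.22 to 7.28 in control livers for 5 platelet markers. They were 309 to 354 in MOCA and 348 to 422 in control livers for 4 lymphatic markers, a sum made almost wholly of 2 genes that are not particular to lymphatic vessels. These were Reln, also on the stellate list, at 201 ± 11.1 in MOCA and 247.5 ± 21.3 in control livers, and Prox1, also a hepatocyte gene, at 125 ± 13.9 in MOCA and 133 ± 17.7 in control livers. Of the other lymphatic markers, Ccl21a averaged 1.61 ± 0.482 in MOCA and 1.04 ± 0.524 in control livers, and Pdpn averaged 0.128 ± 0.0530 in MOCA and 0.208 ± 0.207 in control livers. Of 10 lymphocyte and NK cell markers 2 were listed, at a sum of 0.827 to 1.83 in MOCA and 1.17 to 1.69 in control livers, and of 6 neutrophil markers 4 were listed, at 1.78 to 2.07 in MOCA and 1.30 to 2.96 in control livers. None of these marker genes was called by limma or edgeR, against 0.666% and 0.675% of all genes tested. DESeq2 called 3 hepatocyte markers and Reln lower and 3 erythroid markers higher, against 1.64% and 1.81% of all genes tested. At an unadjusted p under 0.05 (limma), 2 hepatocyte and 3 stellate markers, Reln among them, were lower, and 4 erythroid and 1 Kupffer cell marker were higher. Over all genes tested, 8.05% were lower and 9.42% higher at that p, and 48.9% had a negative log2 fold change. The sinusoidal and general endothelial markers were above 0 in all 8 libraries.

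**Figure D5:**
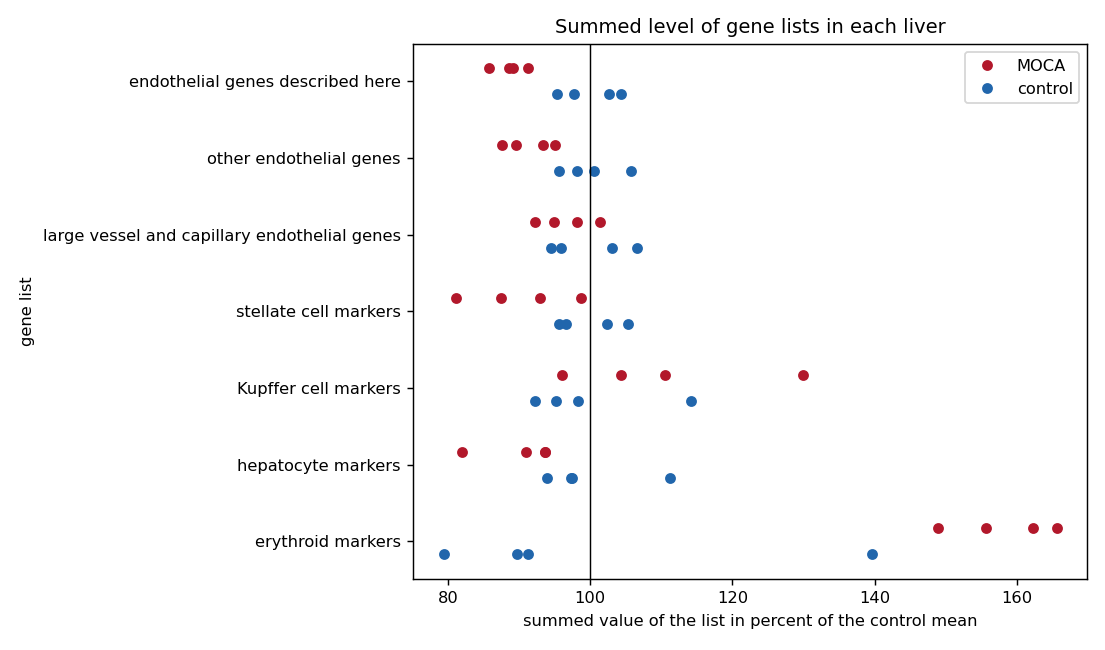
Summed value of each gene list in percent of the mean of the 4 control livers (horizontal axis, which does not start at 0), 1 point per liver, MOCA above control in each row. The endothelial genes described here lie at 85.9% to 91.2% in MOCA and 95.3% to 104% in control livers, and the erythroid markers at 149% to 166% in MOCA and 79.5% to 139.6% in control livers.

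The annotated spans of 3 of the genes overlap that of another listed gene: Bmp6 with Txndc5 (mean 141), Eng with Fpgs (mean 109) and Stab1 with Nt5dc2 (mean 4.55). How far these spans overlap, and on which strands, was not examined. Libraries were directional, but whether the counting used strand is not stated, so reads of overlapping genes may be mixed. Bmp6, at 4.68 in MOCA and 5.94 in control livers, overlaps a far stronger gene, and its value is the more uncertain for it.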

How the data were processed

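Liver RNA was purified on RNeasy columns, and 200 ng went into rRNA-depleted, directional MGIEasy libraries, per the labels' protocols. The tools named in the submitters' processing notes are Trimmomatic 0.38, Bowtie2, RSEM and edgeR, with the build mm10 and no role or order stated. The authors deposited 1 table of normalised signal, with 1 row per gene. All its values (100%) were whole multiples of the worth of 1 read per column within 0.001, so whole reads were recovered. The values are taken as TMM-scaled CPM, and the multiples do not show which scaling was used. Columns not used: 0. Replicates of a group differed by more than counting error (ratio of chi-square to its degrees of freedom, 12.5 to 26.9).

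The main test was limma 3.58.1 (R 4.3.3) with eBayes and trend on log2(value + 1), MOCA against control without covariate, for genes at 1 or above in 4 or more of 8 libraries. Fold changes on this scale understate those of low genes. Benjamini-Hochberg adjustment ran over all genes tested, with a threshold of 0.05. As alternatives, edgeR 4.0.16 and DESeq2 1.42.0 were run on recovered reads, beside other pseudocounts, filters, scalings and variance models, a replicate block, and each mouse left out. Positions come from RefSeq (GRCm38.p6) and spliced lengths from GENCODE M21. Whole animals are the replicates. All 33 members are named; of other lists, called genes or the 3 with the smallest p are named, and a few others where stated. Members and lists were chosen with earlier results of these data known.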

Additional observations from a re-analysis of the deposited data

Results flagged for a closer look

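In 4 of 68 groups of 4 livers examined, 1 liver stood apart from the other three by more of the group's whole range than Dixon's 95% critical value allows, while chance flags about 1 group in 20. Tek in MOCA livers (gap of 0.929 of the range) had 20.95 in MOCA replicate 2 against 19.2 to 19.3 in the other MOCA livers. Eng in MOCA livers (0.939) had 96.4 in MOCA replicate 2 against 84.6 to 85.3. Clec4g in control livers (0.872) had 47.6 in control replicate 1 against 50.2 to 50.5. Gata4 in control livers (0.901) had 20.5 in control replicate 1 against 17.4 to 17.7.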

How the results depend on the processing

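Over 21 alternatives, 23 of the 33 genes kept a negative and 4 a positive log2 fold change, and 6 changed sign in at least 1. No gene of the set was called higher in any of these alternatives. The number called lower was 0 except with robust eBayes (1, Bmp2) and DESeq2 (3, Bmp2, Nrp1 and Ptprb), and it was 0 without each mouse in turn. The median log2 fold change of the set ranged from -0.149 to -0.111 without 1 mouse, and was -0.072 with columns scaled to equal sums, where the median of all genes stood at 0.053. Over all genes the 80 calls (48 higher, 32 lower) became 169 (131 and 38) with equal column sums, 116 (63 and 53) with robust eBayes and 414 (217 and 197) with DESeq2. Without 1 mouse they ranged from 29 to 77, with 42 without MOCA replicate 2, 39 without MOCA replicate 4, and 45, 47, 29 and 40 without control replicates 1 to 4. Upper quartile scaling gave 45 higher and 49 lower. With the replicate number as a block 30 genes were called and 0 of the set. Same-numbered mice did not deviate together (correlations -0.074 to 0.036), so they were not taken as pairs.

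Signs turned as follows, and the cause was not tested. With equal column sums the log2 fold change was 0.047 for Clec4g, 0.027 for Flt1 and 0.018 for Rspo3. With sample weights it was 0.0085 for Clec4g and 0.025 for Rspo3, and for Rspo3 it was 0.0034 by edgeR and 0.00063 by DESeq2. Without 1 mouse it ranged from -0.010 to 0.11 for Lyve1, from -0.047 to 0.038 for Clec4g, from -0.098 to 0.068 for Flt1, from -0.182 to 0.022 for Emcn, from -0.149 to 0.098 for Rspo3 and from -0.147 to 0.016 for Ramp2. Wnt9b was not tested with a value of 1 required in all 8 libraries. With 4 mice a group, standard errors of the 33 genes ran from 0.0589 for Stab1 to 0.169 for Wnt9b, so small differences could not be resolved.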
